A study of Homo sapiens with 25 samples.

Results

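The genes described here are 40 genes of endoplasmic reticulum (ER) protein folding and ER stress, taken by symbol from a table of 31919 genes: chaperones, disulfide isomerases, degradation factors, stress sensors and parts of the entry and exit machinery. All 40 were found, and all 40 passed the filter on low values that left 18799 genes for testing. RNA sequencing measured them in DND-41, an established line from a human T-cell acute lymphoblastic leukaemia, kept in media whose histidine, an essential amino acid, was graded from the full amount (100%) down to none. On day 6 the 100%, 50%, 12.5% and histidine-free media had 3 libraries each and the 25% medium had 2. Day 9 covered 100%, 25% and 12.5% with 3 libraries each and 50% with 2. The histidine level and the day are the only differences the labels give between groups, all from the 1 line with no genetic change named, and they do not say whether replicates were separate cultures. The p-values therefore measure the spread between these libraries, which may be technical.

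Proteins bound for secretion or the cell surface enter the ER through the SEC61 channel, are folded there by BiP (HSPA5), GRP94 (HSP90B1), calreticulin and the disulfide isomerases, and leave in COPII vesicles. Proteins that fail to fold are pulled back to the cytosol and destroyed, a process called ER-associated degradation. A load of unfolded protein is sensed by ATF6, IRE1 (ERN1) and PERK (EIF2AK3). ATF6 and the spliced form of XBP1 made by IRE1 switch on chaperone and degradation genes, while PERK slows translation and raises ATF4.

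Many chaperone promoters carry an ER stress response element, bound by ATF6 or XBP1 together with NF-Y at the CCAAT end. It was searched on both strands, as CCAAT and CCACG with any 9 bases between them (ERSE) or as ATTGG and CCACG with any 1 base between them (ERSE-II), in RefSeq windows on GRCh38.p14 from 250 bases before to 50 after each transcript start. Windows were found for 36 of the 40 genes, and 6 of these had several. ERSE was in the windows of 8 genes (HSPA5, HSP90B1, CRELD2, CALR, CANX, PDIA6, ERO1B and XBP1), beside 0.0916% of the 27305 genes with windows in the table. ERSE-II was in HYOU1, SDF2L1 and HERPUD1, beside 0.0696% of genes. The UPRE core TGACGTGG was in HYOU1, DNAJC10 and VCP and in 0.927% of genes. The bare CCAAT, which is also part of ERSE and, read on the other strand, of ERSE-II, was in 30 of the 36 genes and in 39.7% of all genes. A match is a description of the letters, and no binding was measured. The 250 bases before the start are printed for 6 genes whose levels the results turn on, 5′ to 3′ on the gene's strand, with the ERSE or ERSE-II letters in capitals in either orientation.
HSPA5, chr9:125241344-125241593, minus strand: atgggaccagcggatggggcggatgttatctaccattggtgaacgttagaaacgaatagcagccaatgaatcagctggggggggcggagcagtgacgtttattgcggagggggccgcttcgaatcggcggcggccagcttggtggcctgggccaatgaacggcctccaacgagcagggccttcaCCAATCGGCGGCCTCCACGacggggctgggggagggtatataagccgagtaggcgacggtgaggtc
HSP90B1, chr12:103930160-103930409, plus strand: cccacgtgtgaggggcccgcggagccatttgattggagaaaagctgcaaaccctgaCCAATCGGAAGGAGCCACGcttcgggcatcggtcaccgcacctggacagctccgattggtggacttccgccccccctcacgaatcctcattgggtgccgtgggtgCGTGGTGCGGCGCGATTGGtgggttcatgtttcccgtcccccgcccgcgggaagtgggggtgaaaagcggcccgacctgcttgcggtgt
SDF2L1, chr22:21642052-21642301, plus strand: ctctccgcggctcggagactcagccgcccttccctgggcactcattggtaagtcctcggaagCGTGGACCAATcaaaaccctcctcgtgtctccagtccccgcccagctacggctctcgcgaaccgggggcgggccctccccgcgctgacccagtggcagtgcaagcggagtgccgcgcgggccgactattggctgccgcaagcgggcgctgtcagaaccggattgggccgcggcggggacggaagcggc
CRELD2, chr22:49918384-49918633, plus strand: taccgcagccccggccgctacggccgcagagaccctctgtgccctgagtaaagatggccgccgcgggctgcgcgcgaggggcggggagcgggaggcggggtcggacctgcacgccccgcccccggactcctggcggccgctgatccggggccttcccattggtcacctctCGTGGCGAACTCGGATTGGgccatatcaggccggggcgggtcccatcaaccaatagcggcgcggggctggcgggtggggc
HERPUD1, chr16:56931892-56932141, plus strand: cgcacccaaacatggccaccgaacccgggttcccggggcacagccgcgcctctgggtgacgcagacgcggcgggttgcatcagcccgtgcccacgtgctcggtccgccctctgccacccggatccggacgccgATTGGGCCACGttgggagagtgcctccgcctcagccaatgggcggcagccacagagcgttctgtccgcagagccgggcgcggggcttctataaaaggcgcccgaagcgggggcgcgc
XBP1, chr22:28800570-28800819, minus strand: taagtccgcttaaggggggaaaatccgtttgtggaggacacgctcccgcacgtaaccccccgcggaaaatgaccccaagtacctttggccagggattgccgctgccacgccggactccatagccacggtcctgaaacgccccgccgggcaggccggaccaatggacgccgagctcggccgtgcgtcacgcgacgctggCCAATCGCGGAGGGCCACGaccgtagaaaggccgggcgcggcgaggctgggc
HSPA5 and XBP1 each hold 1 exact ERSE match close to the start, HSP90B1 holds 2 in opposite orientations, and SDF2L1 and HERPUD1 hold the shorter ERSE-II. Elements with a mismatch were not searched, so these are not counts of all elements.

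**Figure D1:**
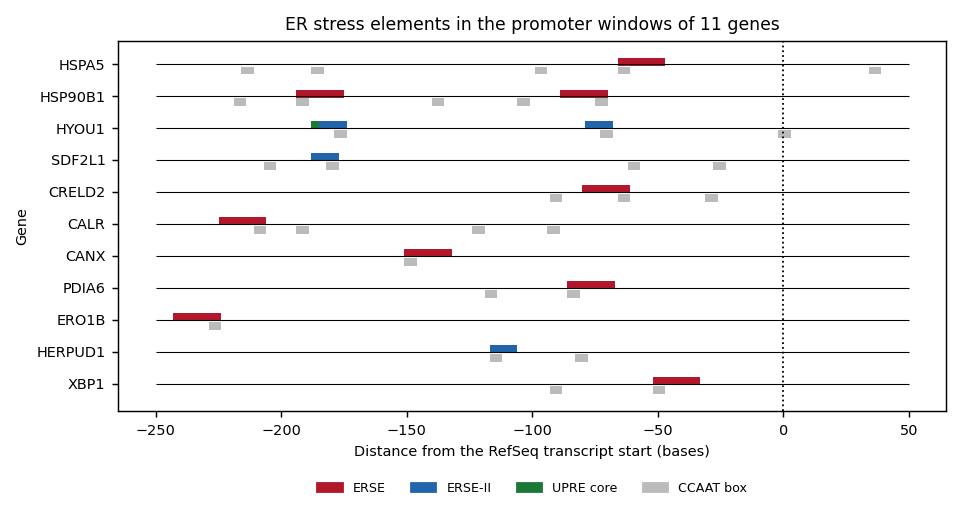
Position of the ER stress elements in the promoter windows of the 11 genes that hold ERSE or ERSE-II, as distance in bases from the RefSeq transcript start (dotted line at 0). Red bars are ERSE, blue ERSE-II, green the UPRE core and grey bare CCAAT, all as exact matches. CANX is drawn for 1 of its several windows, and the exact ERSE match of HSPA5 lies from 66 to 48 bases before the start.

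The libraries held between 13.6 M and 16.1 M normalized counts and between 14425 and 16263 genes at 10 or more. T-lineage genes were high in every library (CD3E between 11530 and 18480 normalized counts, LCK between 3176 and 6701), while CD2 reached only 37.6 and TRAC 11.7. Epithelial keratins marked 6 libraries, in which KRT8, KRT18 and KRT19 added up to over 100 normalized counts: replicates 1 and 2 at 100% and at 50% on day 6, and replicates 1 and 3 at 25% on day 9. The 7 epithelial markers summed to between 26.3 and 1546 in full medium on day 6, and to between 18.3 and 1657 at 25% on day 9. They summed to at most 76.5 at 25%, 12.5% and no histidine on day 6, and to between 10.3 and 32.1 at 100% and 12.5% on day 9. Counts of calls are therefore given with and without those 6 libraries, which leaves 1 library in full medium on day 6 and 1 at 25% on day 9. The groups of the day 9 comparison of 12.5% with 100% hold none of them, though they enter the spread that all groups share. Replicate 1 without histidine has day 6 in its title and day 9 as its time label, and it was kept at day 6.

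Differences are on the log2(normalized count + 1) scale from limma's moderated test, a gene is said to have risen or fallen at a Benjamini-Hochberg adjusted p below 0.05 over all 18799 genes, and group values are mean ± SD. Fewer transcripts per cell and a change in the mix of cells cannot be told apart in such bulk samples. The ER genes fell most at 12.5% histidine. There 17 of the 40 fell and 2 rose on day 6, where 15.3% of all genes fell and 11.7% rose, and their median difference was -0.23 beside 0.04 over all genes. On day 9 at 12.5%, 12 fell and 1 rose (11.5% and 9.35% of all genes), with a median of -0.16 beside 0.03. Without any histidine rises and falls were nearly as many: on day 6, 10 rose and 9 fell (13.3% and 16.5% of all genes), and the median was -0.02. Set directly against 12.5%, the medium without histidine had 13 of the ER genes higher and 3 lower (7% and 8.26% of all genes). The median was 0.22 beside -0.01 over all genes. Full-medium libraries do not enter these differences of means, but they enter the spread that all groups share. In a fit of the compared groups only, 9 of these 16 calls were lost.

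At 25% histidine 5 rose and 4 fell on day 6 (6.79% and 6.92% of all genes), and 3 rose and 9 fell on day 9 (9.4% and 8.76%). At 50% no ER gene passed the limma threshold on either day. On day 6 at 50%, 0% of all genes rose and 0% fell, and 1 ER gene and 695 genes in all had an unadjusted p under 0.05. On day 9 at 50%, 0% rose and 0.00532% fell, with 1 ER gene and 906 genes in all at an unadjusted p under 0.05. The 7 comparisons with full medium use the same 3 control libraries within a day, so their values are set side by side and not counted as independent. The ER genes added up to 0.702% ± 0.0246 (SD, n = 3) of all normalized counts in full medium on day 6, to 0.642% ± 0.0136 (n = 3) at 12.5% and to 0.746% ± 0.0242 (n = 3) without histidine. The 12.5% libraries, between 0.634% and 0.658%, lay below every library at the other levels of day 6. The sum of the 6 plasma cell markers found in the table was also lowest there. It ran from 1353 to 1402 normalized counts in full medium on day 6, from 1052 to 1123 at 12.5% and from 1455 to 1824 without histidine. Most of this sum was MZB1, a plasma cell marker that is itself an ER protein working with GRP94, between 766 and 1490 over all libraries. PRDM1 was between 107 and 371, while TNFRSF17, IRF4 and SDC1 had medians of 0, 0.59 and 1.84. The 17 T-lineage markers summed to between 57370 and 60200 in full medium on day 6, to between 45460 and 56030 at 12.5% and to between 46820 and 58560 without histidine. The 4 fibroblast markers found in the table, of 6 listed, summed to between 1071 and 1268, between 781 and 899.8 and between 618.1 and 626.6 in the same order. Nearly all of that sum was PDGFRB (616.8 to 1490 over all libraries), while COL1A1, COL1A2 and DCN reached at most 26.6. The 6 B cell markers found in the table summed to between 17040 and 18690, between 12760 and 18740 and between 10790 and 14530. Most of the B cell sum was CD79A (9400 to 22250 over all libraries). The libraries at 12.5% on day 6 held 13.6 M to 14.8 M normalized counts and 15594 to 16263 genes at 10 or more, beside 15.3 M to 15.6 M and 14834 to 15572 in full medium. The part of these values in the results was not tested.

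**Figure D2:**
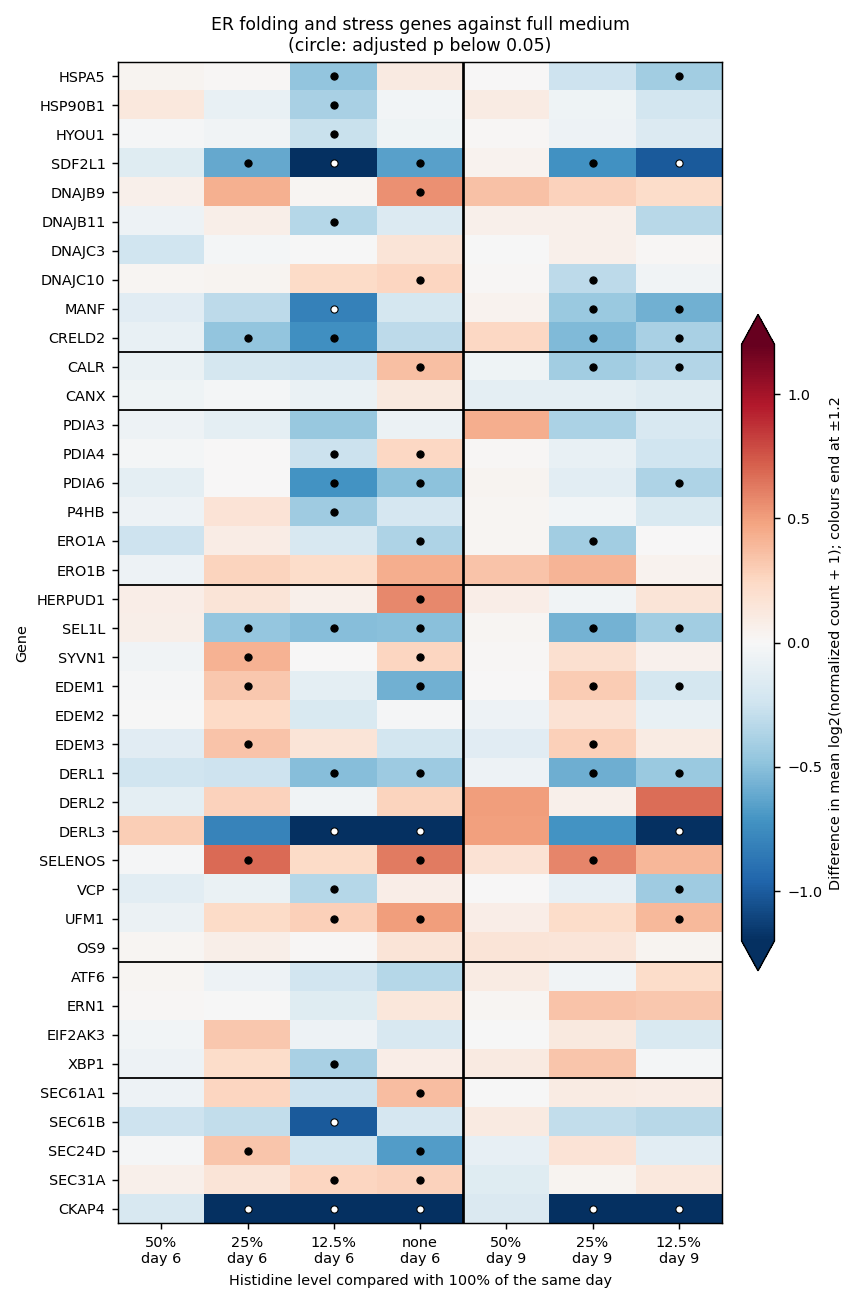
Difference of each of the 40 genes from 100% histidine of the same day, as the difference in mean log2(normalized count + 1), with columns for 4 levels on day 6 and 3 on day 9 and rows grouped by role. Circles mark an adjusted p below 0.05: 19 in the day 6 column at 12.5% and 13 in the day 9 column, and none in either 50% column.

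Of the 40 genes 21 had their lowest day 6 mean at 12.5% (52.5%, beside 17.8% of all genes tested), and none had its highest mean there (0%, beside 21.9%). On day 9, where 12.5% was the lowest level sampled, 19 had their lowest mean at it (47.5%, beside 27.5%). At 12.5% HSPA5, SDF2L1, MANF, CRELD2, PDIA6, SEL1L, DERL1, DERL3, VCP and CKAP4 fell on both days and UFM1 rose on both, where 8.69% of all genes fell and 5.62% rose on both. SDF2L1, SEL1L and CKAP4 fell in all 5 comparisons of 25%, 12.5% or no histidine with full medium, as did 2.54% of all genes. These comparisons share their full-medium libraries within a day. No call was found for 10 genes in any of the 7 comparisons with full medium: DNAJC3, CANX, PDIA3, ERO1B, EDEM2, DERL2, OS9, ATF6, ERN1 and EIF2AK3. Of all genes 51.0% had no call in those 7. Some of these genes passed under an alternative. CANX and OS9 did so without histidine after quantile normalization (0.27 and 0.25, adjusted p = 0.0228 and 0.0102), and PDIA3 at 12.5% on day 6 in a fit of the compared groups only (-0.46, adjusted p = 0.0146). DERL2 did so at 12.5% on day 9 without replicate 1 in full medium (0.90, adjusted p = 0.0454), and the 3 sensors are described below.

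For the calls described below, the libraries whose removal ended one are named or counted beside it, and ranges of adjusted p cover all alternative fits and left-out libraries. Exceptions are the rise of MANF from 12.5% to no histidine and the rise of DNAJC10 without histidine, for which the libraries are not named. For 12.5% on day 6, 8 of the 19 calls held under all 10 alternative fits and with each of the 25 libraries left out in turn: HSPA5, SDF2L1, MANF, CRELD2, PDIA6, SEL1L, SEC61B and CKAP4. The count dropped to 12 without replicate 1 in full medium or replicate 2 at 12.5%, and to 9, all falls, without the keratin-high libraries. For 12.5% on day 9, HSPA5, SDF2L1, CKAP4 and UFM1 held throughout, and the count dropped to 8 without replicate 2 in full medium and to 7 without replicate 2 at 12.5%. Without histidine 8 of 19 calls held throughout: SDF2L1, HERPUD1, SEL1L, EDEM1, SELENOS, UFM1, SEC24D and CKAP4, and 9 genes were called without the keratin-high libraries. At 25% on day 6 no call held throughout: the count was 4 without either of the 25% libraries and 0 without the keratin-high libraries. At 25% on day 9 SEL1L and CKAP4 held, and the count was 7 without replicate 2 in full medium or replicate 2 at 25%, and 3 without the keratin-high libraries. For none against 12.5%, HSPA5, CALR, PDIA4, EDEM1, SEC61A1 and SEC24D held, and the count was 10 without replicate 3 of the medium without histidine.

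Among the 10 HSP70 and HSP90 chaperones and their cofactors, 7 fell and none rose at 12.5% on day 6, where 15.3% of all genes fell and 11.7% rose. Without histidine 2 of them rose and 1 fell (13.3% and 16.5% of all genes). HSPA5 (BiP, chr9:125234853-125241330, the central HSP70 of the ER and the brake on the stress sensors) stood at 4950, 4253 and 4535 normalized counts in full medium on day 6 and at 3260, 3251 and 3383 at 12.5%. Every 12.5% library lay below every other library of that day, and HSPA5 fell by 0.47 on the log2 scale (SE 0.10, adjusted p = 0.00121). At the other levels of day 6 it stood at 4839, 5357 and 3915 (50%), at 4773 and 4443 (25%) and at 4649, 5156 and 4958 (no histidine). The medium without histidine thus overlapped with full medium (log2 difference 0.11, 95% interval -0.10 to 0.31) and lay above 12.5%, where the rise was 0.58 (SE 0.10, adjusted p = 0.00033). On day 9 HSPA5 stood at 5971, 5371 and 5219 in full medium, at 6092 and 5034 at 50%, at 5027, 4579 and 4331 at 25% and at 4467, 4076 and 3864 at 12.5%. The 12.5% libraries were again below all full-medium libraries, and HSPA5 fell by 0.42 (adjusted p = 0.00439). At 25% on day 9 the libraries also lay below full medium, but the difference of -0.25 did not pass (adjusted p = 0.0954), except after quantile normalization (0.0188) and without day 6 replicate 3 at 50% (0.0485).

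HSP90B1 (GRP94, the HSP90 of the ER) stood at 5662, 5468 and 5342 normalized counts in full medium, at 6228, 5835 and 5977 at 50%, at 5457 and 4866 at 25%, at 4485, 4171 and 3971 at 12.5% and at 5487, 5678 and 4967 without histidine on day 6. It fell by 0.38 at 12.5% (SE 0.09, adjusted p = 0.00174) and rose by 0.35 from there to the medium without histidine (adjusted p = 0.00654). That rise was lost after upper-quartile rescaling and in a fit of these groups alone (adjusted p 0.105 and 0.0604, from 0.00253 over all alternatives). Its fall was lost after upper-quartile rescaling or without the keratin-high libraries (adjusted p between 0.000602 and 0.121 over all alternatives). On day 9 HSP90B1 stood at 5976, 5267 and 4986 in full medium, at 6525 and 5122 at 50%, at 5214, 5311 and 5124 at 25% and at 4678, 4675 and 4501 at 12.5%. The day 9 libraries at 12.5% lay below the full-medium libraries, yet the difference of -0.22 did not pass (adjusted p = 0.0689). It did pass with the replicate number as a block (0.0383), with the filter at 50 (0.0498) and without day 9 replicate 3 in full medium or replicate 1 or 2 at 50% (adjusted p between 0.0382 and 0.0485).

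SDF2L1 (chr22:21642261-21644298), which works with the HSP40 cofactor DNAJB11, showed the deepest fall of the chaperones at 12.5%. It stood at 988, 815 and 889 normalized counts in full medium on day 6, at 834, 899 and 702 at 50%, at 582 and 584 at 25%, at 328, 391 and 423 at 12.5% and at 447, 639 and 648 without histidine. No library at 25% or below reached the full-medium range. It fell at each, with log2 differences of -0.62 at 25% (adjusted p = 0.00919), -1.24 at 12.5% (SE 0.14, adjusted p = 9.11e-07) and -0.65 without histidine (adjusted p = 0.000939). The 25% call was lost without either 25% library (adjusted p up to 0.0713), as well as without the libraries high in keratin (0.11, with a range from 0.00176 to 0.11 over all alternatives). On day 9 SDF2L1 stood at 1021, 979 and 999 in full medium, at 1158 and 913 at 50%, at 688, 638 and 506 at 25% and at 492, 487 and 515 at 12.5%. It fell at 25% (-0.72, adjusted p = 0.000669) and at 12.5% (to 0.498 times full medium, adjusted p = 1.73e-05), while at 50% the difference was 0.04 (95% interval -0.28 to 0.37). Without the keratin-high libraries the day 9 call at 25% was lost (adjusted p 0.0569, between 0.000165 and 0.0569 over all alternatives).

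MANF, a secreted ER stress protein that binds BiP, stood at 1377, 1301 and 1233 normalized counts in full medium on day 6, at 1223, 1422 and 957 at 50%, at 1095 and 996 at 25%, at 602, 777 and 879 at 12.5% and at 890, 1220 and 1302 without histidine. It fell by 0.81 at 12.5% (SE 0.16, adjusted p = 0.000457), where all 3 libraries were below every other library of the day. On day 9 MANF stood at 1677, 1610 and 1630 in full medium, at 1887 and 1506 at 50%, at 1429, 1131 and 1070 at 25% and at 1248, 1000 and 1061 at 12.5%. The day 9 difference at 12.5% was a fall (-0.58, adjusted p = 0.00995). It missed the threshold only without replicate 2 at 12.5% (adjusted p 0.0507, between 0.00497 and 0.0507 over all alternatives). The fall at 25% (-0.45, adjusted p = 0.0488) was lost with any of 15 libraries left out (adjusted p up to 0.179).

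CRELD2, a folding factor induced and secreted on ER stress, stood at 688, 591 and 652 normalized counts in full medium on day 6, at 644, 589 and 585 at 50%, at 518 and 412 at 25%, at 359, 382 and 416 at 12.5% and at 447, 546 and 562 without histidine. It fell at 12.5% (-0.74, SE 0.13, adjusted p = 0.000227) and at 25% (-0.47, adjusted p = 0.0348). The 25% fall was lost without replicate 1 or 3 in full medium or replicate 3 at 25% (adjusted p between 0.0192 and 0.388 over all alternatives) and with the replicate number as a block. On day 9 CRELD2 stood at 681, 513 and 589 in full medium, at 758 and 652 at 50%, at 505, 386 and 347 at 25% and at 464, 456 and 434 at 12.5%. It fell at 25% (-0.53, adjusted p = 0.00604) and at 12.5% (-0.39, adjusted p = 0.0411). The former was lost in a fit of the compared groups only and without the keratin-high libraries (adjusted p between 0.00104 and 0.0561 over all alternatives). The latter was lost without any one of 5 day 9 libraries, which are replicates 1 and 3 in full medium and each of the 12.5% libraries (adjusted p up to 0.191).

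DNAJB9 (ERdj4), an HSP40 cofactor of BiP that restrains IRE1, stood at 186, 183 and 184 normalized counts in full medium on day 6, at 185, 206 and 187 at 50%, at 250 and 247 at 25%, at 202, 166 and 197 at 12.5% and at 238, 286 and 289 without histidine. It rose by 0.55 without histidine (SE 0.15, adjusted p = 0.00739), and the groups did not overlap. The rise was lost without the keratin-high libraries (adjusted p 0.144, between 0.00182 and 0.144 over all alternatives). On day 9 DNAJB9 stood at 330, 215 and 271 in full medium, at 385 and 304 at 50%, at 321, 309 and 346 at 25% and at 367, 253 and 325 at 12.5%, with every group overlapping full medium. DNAJC10 also rose without histidine, a call that did not hold with each library left out in turn. On day 6 it stood at 1096, 1087 and 1114.5 in full medium and at 1410, 1393 and 1158 without histidine. At 12.5% it stood at 1313, 1280 and 1278, all above full medium but with no call. Its day 9 libraries at 25% (843, 955 and 1014) lay below full medium (1130, 1147 and 1202). HYOU1, a large HSP70 relative, and DNAJB11 also fell at 12.5% on day 6 (-0.27 and -0.34, adjusted p = 0.0491 and 0.0329). The HYOU1 call was lost with any of 13 libraries left out, and the DNAJB11 call without replicate 1 or 2 in full medium or replicate 1 or 2 at 12.5%, with adjusted p up to 0.262 and 0.393 over the alternatives.

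**Figure D3:**
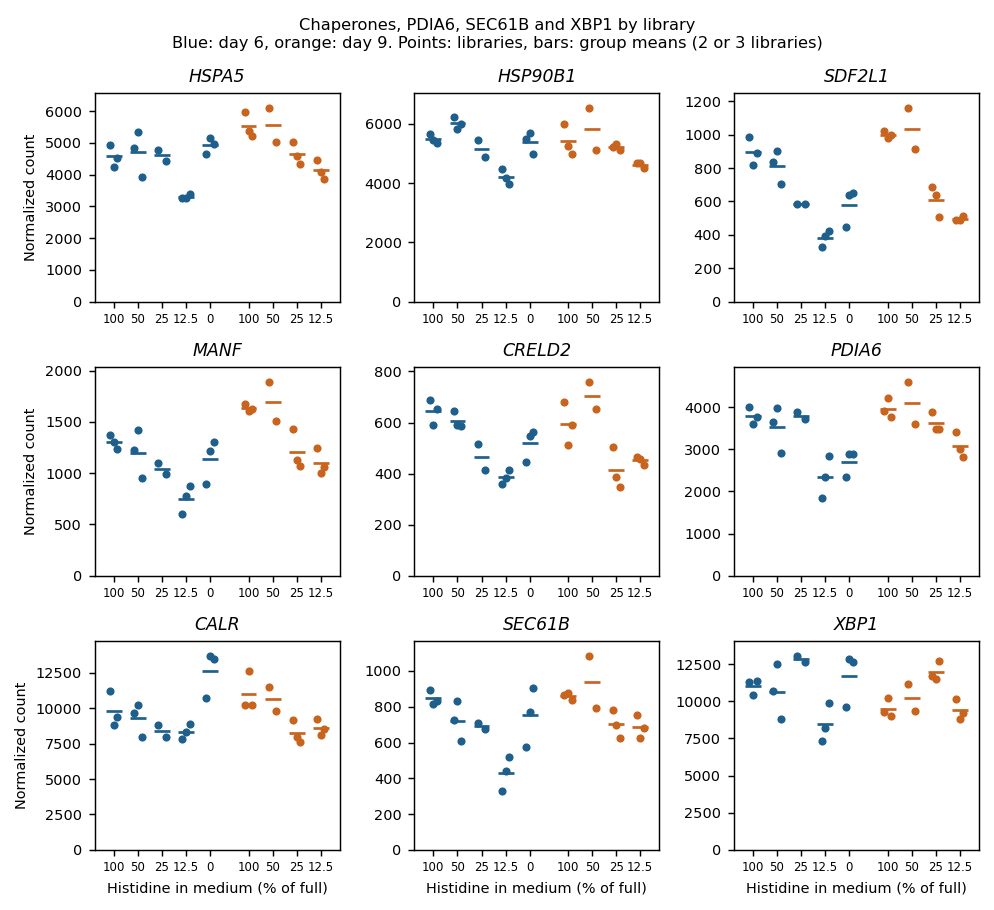
Normalized counts of 9 genes in each library (points) with group means (bars), by histidine in the medium as percent of the full amount, day 6 in blue and day 9 in orange, each panel starting at 0. In HSPA5, HSP90B1, SDF2L1, MANF and SEC61B the 3 libraries at 12.5% on day 6 are the lowest of that day, and the medium without histidine lies above them.

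The lectin chaperones hold glycoproteins with trimmed sugars until they fold. CALR (calreticulin) was 9820 ± 1264 normalized counts in full medium on day 6, 8343 ± 523 at 12.5% and 12618 ± 1643 without histidine (n = 3 each). The step from 12.5% to no histidine was a rise of 0.59 (SE 0.12, adjusted p = 0.00135) with no overlap of libraries. CALR rose by 0.36 against full medium (adjusted p = 0.0244) with overlapping libraries, and that call was lost without replicate 2 or 3 of either group (adjusted p up to 0.121). On day 9 CALR fell at 25% (-0.42, adjusted p = 0.0153) and at 12.5% (-0.35, adjusted p = 0.0384). Leaving out replicate 2 in full medium or replicate 2 or 3 of the restricted medium ended either call (adjusted p up to 0.104 and 0.206). CANX (calnexin), its membrane-bound relative, had no call, with differences from full medium between -0.16 and 0.11 on both days, apart from the alternative named above.

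Disulfide isomerases and oxidases form and reshuffle the cysteine bonds of secreted proteins, and 3 of the 6 fell at 12.5% on day 6 while none rose (15.3% and 11.7% of all genes). PDIA6, an isomerase that also acts on the sensors, stood at 3993, 3595 and 3775 normalized counts in full medium on day 6, at 3658, 3990 and 2921 at 50%, at 3886 and 3713 at 25%, at 1852, 2348 and 2831 at 12.5% and at 2336, 2879 and 2881 without histidine. It fell at 12.5% (-0.71, SE 0.13, adjusted p = 0.000309) and without histidine (-0.49, adjusted p = 0.00604), and both groups lay below all libraries at 100% and 25%. The call without histidine was lost without the keratin-high libraries (adjusted p 0.101, from 0.00227 over all alternatives). On day 9 PDIA6 stood at 3910, 4227 and 3757 in full medium, at 4590 and 3594 at 50%, at 3890, 3488 and 3492 at 25% and at 3408, 2996 and 2806 at 12.5%. Its fall at 12.5% (-0.37, adjusted p = 0.049) was lost with any of 17 libraries left out (adjusted p up to 0.172). Without histidine PDIA6 differed from 12.5% by 0.22 on the log2 scale, which did not pass (adjusted p = 0.301).

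PDIA4 (ERp72) fell at 12.5% on day 6 (-0.26, adjusted p = 0.0388) and rose without histidine (0.25, adjusted p = 0.0444), and each call was lost with any full-medium library of day 6 left out, among others (adjusted p up to 0.297 and 0.173 over all alternatives). Between those media the rise was 0.51 (SE 0.09, adjusted p = 0.000451), from 2530 ± 56.8 to 3600 ± 236 normalized counts (n = 3 each), and it held throughout. P4HB, the founding isomerase, fell at 12.5% on day 6 (-0.42, 5783 ± 691 against 7715 ± 155, n = 3 each, adjusted p = 0.00562). That call was lost without the keratin-high libraries (adjusted p 0.076, from 0.00248 over all alternatives). The oxidase ERO1A, which recharges the isomerases, fell without histidine (-0.37, adjusted p = 0.0307) and at 25% on day 9 (-0.42, adjusted p = 0.024). Its first call was lost without replicate 1 or 2 in full medium or replicate 1 or 3 without histidine, and its second without replicate 1 or 2 in full medium or replicate 2 at 25% (adjusted p up to 0.498 and 0.159 over all alternatives). PDIA3 and ERO1B had no call against full medium.

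Of the 13 degradation genes, 4 fell and 1 rose at 12.5% on day 6, where 15.3% of all genes fell and 11.7% rose. At 25% on day 6, 1 fell and 4 rose (6.92% and 6.79% of all genes), and without histidine 4 fell and 4 rose (16.5% and 13.3%). SEL1L, the scaffold of the main degradation complex, was 3370 ± 114 normalized counts in full medium on day 6 (n = 3), 2444 ± 15.9 at 25% (n = 2), 2364 ± 151 at 12.5% and 2391 ± 180 without histidine (n = 3 each). It fell at all 3 levels (-0.46, -0.51 and -0.50, adjusted p = 0.00136, 7.07e-05 and 5.68e-05), with no overlap. On day 9 SEL1L fell at 25% and at 12.5% (-0.57 and -0.41, adjusted p = 2.91e-05 and 0.000823), the latter lost after upper-quartile rescaling (adjusted p 0.0635, from 0.000464 over all alternatives). The 25% call of day 6 was lost without the keratin-high libraries (adjusted p 0.0669, from 0.000696 over all alternatives). SEL1L at 12.5% and without histidine differed by 0.02 (95% interval -0.16 to 0.19).

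SYVN1 (HRD1), the ubiquitin ligase that SEL1L stabilizes, rose by 0.42 at 25% on day 6 (adjusted p = 0.00777) and by 0.26 without histidine (adjusted p = 0.0374). The first call was lost without replicate 2 at 25% (adjusted p 0.14), as well as without the libraries high in keratin (between 0.00386 and 0.171 over all alternatives). The second was lost without any full-medium library or replicate 2 or 3 without histidine (adjusted p up to 0.316). At 12.5% its differences were 0.00 on day 6 and 0.05 on day 9, and neither passed.

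EDEM1, a mannosidase-like factor that steers misfolded glycoproteins to degradation, rose at 25% and fell without histidine. It stood at 13158, 13015 and 13644 normalized counts in full medium on day 6, at 13673, 12562 and 13228 at 50%, at 16444 and 16722 at 25%, at 11580, 12232 and 12888 at 12.5% and at 8512, 9224 and 8901 without histidine. Both 25% libraries were above and all libraries without histidine below every other library of the day. The rise at 25% was 0.32 (adjusted p = 0.00627) and the difference without histidine was -0.58 (SE 0.07, adjusted p = 6.67e-07). On day 9 EDEM1 stood at 11489, 12346 and 11658 in full medium, at 11551 and 12125 at 50%, at 15181, 14369 and 14262 at 25% and at 9646, 11007 and 9964 at 12.5%. It rose at 25% (0.30, adjusted p = 0.00293) and fell at 12.5% (-0.21, adjusted p = 0.0295). The day 6 rise was lost without replicate 3 at 25% (adjusted p 0.0724), after upper-quartile rescaling, after quantile normalization and without the keratin-high libraries (range 0.00473 to 0.208 over all alternatives). The day 9 rise was lost after quantile normalization and without the keratin-high libraries (0.00224 to 0.156), and the day 9 fall without replicate 2 or 3 in full medium or replicate 1 or 3 at 12.5% (0.0152 to 0.538). That fall was also lost after upper-quartile rescaling (-0.10, adjusted p 0.538), after quantile normalization (-0.13, adjusted p 0.286), with no filter (0.0536), in a fit of the compared groups only (0.106) and without the keratin-high libraries (0.0636). EDEM3, an active mannosidase of the same family, also rose at 25% on both days, by 0.34 and 0.29 (adjusted p = 0.0308 and 0.0372). Both EDEM3 calls were lost without replicate 2 or 3 in full medium or at 25% (adjusted p up to 0.182 and 0.158).

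The derlins form the exit channel for degradation. DERL1 stood at 1414, 1111 and 1440 normalized counts in full medium on day 6, at 1204, 1163 and 974 at 50%, at 1102 and 1103 at 25%, at 920, 770 and 1106 at 12.5% and at 768, 1073 and 1098 without histidine. It fell at 12.5% (-0.51, adjusted p = 0.00517) and without histidine (-0.44, adjusted p = 0.0123), with the lowest full-medium library only just above the restricted ones. The calls were lost without replicate 2 at 12.5% (adjusted p 0.0512, from 0.00111 over all alternatives) and without replicate 1 or 3 in full medium or replicate 1 without histidine (adjusted p up to 0.117). On day 9 DERL1 stood at 1411, 1286 and 1401 in full medium, at 1292 and 1331 at 50%, at 925, 884 and 926 at 25% and at 1029, 976 and 1007 at 12.5%. It fell at 25% (-0.58, adjusted p = 0.0025) and at 12.5% (-0.44, adjusted p = 0.0169), and the groups did not overlap with full medium. The 12.5% call was lost without replicate 1 or 3 in full medium or replicate 2 at 12.5% (adjusted p up to 0.0718 over all alternatives), and the 25% call without the keratin-high libraries (0.0585, from 0.000624).

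DERL3, a low-level family member best known from secretory cells, fell at 12.5% and without histidine on day 6 (-2.03 and -2.23, adjusted p = 0.00606 and 0.00229) and at 12.5% on day 9 (-1.82, adjusted p = 0.0162). Its values were small: 18.5, 30.2 and 16.7 normalized counts in full medium, 5.29, 7.08 and 2.13 at 12.5% and 1.16, 4.88 and 7.20 without histidine on day 6. The groups did not overlap, but the day 6 calls were lost without the keratin-high libraries (adjusted p 0.199 and 0.135). The day 9 call was lost without replicate 2 or 3 in full medium or replicate 1 at 12.5% (adjusted p between 0.00833 and 0.0957 over all alternatives).

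HERPUD1, a membrane protein that gathers the degradation complex and is strongly induced by ER stress, stood at 720, 724 and 744 normalized counts in full medium on day 6, at 795, 847 and 679 at 50%, at 751 and 876 at 25%, at 715, 728 and 849 at 12.5% and at 1007, 1020 and 1253 without histidine. Every library without histidine was above every other library of day 6, and HERPUD1 rose by 0.58 against full medium (SE 0.11, adjusted p = 0.000224) and by 0.51 against 12.5% (adjusted p = 0.00201). The second rise was lost in a fit of these groups alone (adjusted p 0.0508, from 0.000835 over all alternatives). On day 9 HERPUD1 stood at 1063, 1084 and 941 in full medium, at 1170 and 1002 at 50%, at 1003, 965 and 1016 at 25% and at 1274, 1128 and 1043 at 12.5%, with no call at any level.

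SELENOS, a selenoprotein that links derlins to the VCP motor, stood at 429, 293 and 347 normalized counts in full medium on day 6, at 374, 370 and 307 at 50%, at 552 and 577 at 25%, at 343, 399 and 516 at 12.5% and at 518, 547 and 571 without histidine. It rose by 0.68 at 25% (adjusted p = 0.00758) and by 0.63 without histidine (SE 0.15, adjusted p = 0.00239), and the difference at 12.5% did not pass (0.23, adjusted p = 0.279). On day 9 SELENOS stood at 486, 375 and 427 in full medium, at 548 and 425 at 50%, at 734, 591 and 609 at 25% and at 585, 532 and 575 at 12.5%. It rose by 0.59 at 25% (adjusted p = 0.00729), and the difference at 12.5% was 0.40 (adjusted p = 0.0622), which passed under 8 of 35 alternatives, among them upper-quartile rescaling (0.51, adjusted p = 0.00977). The 25% call of day 6 was lost without replicate 3 at 25% (adjusted p 0.0802, from 0.00268 over all alternatives). The 25% call of day 9 was lost without replicate 1 at 25% (0.0522, between 0.00187 and 0.21 over all alternatives), and both were lost without the keratin-high libraries.

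UFM1, a ubiquitin-like tag used on ribosomes stalled at the ER, rose at 12.5% on both days. It was 1037 ± 14.3 normalized counts in full medium on day 6, 1268 ± 117 at 12.5% and 1469 ± 69.3 without histidine (n = 3 each), rises of 0.29 and 0.50 (adjusted p = 0.0209 and 0.000138). On day 9 it was 1106 ± 58.6 in full medium and 1447 ± 17.5 at 12.5% (n = 3 each), a rise of 0.39 (adjusted p = 0.00306). The smallest of these, at 12.5% on day 6, was lost without replicate 1 in full medium, without replicate 3 at 12.5% and without the keratin-high libraries (adjusted p between 0.00225 and 0.18 over all alternatives).

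VCP, the ATPase that pulls substrates out of the membrane, stood at 3921, 3843 and 3795 normalized counts in full medium on day 6, at 3961, 4231 and 2623 at 50%, at 3743 and 3553 at 25%, at 2855, 3229 and 3018 at 12.5% and at 3675, 4375 and 4206 without histidine. On day 9 VCP stood at 4044, 5125 and 4130 in full medium, at 4438 and 4433 at 50%, at 4405, 3706 and 4234 at 25% and at 3336, 3130 and 3400 at 12.5%. It fell at 12.5% on both days (-0.35 and -0.42, adjusted p = 0.0443 and 0.0182). Any of 10 left-out libraries ended the first call (adjusted p up to 0.206 over all alternatives). The second was lost without replicate 2 of either group (adjusted p up to 0.124).

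**Figure D4:**
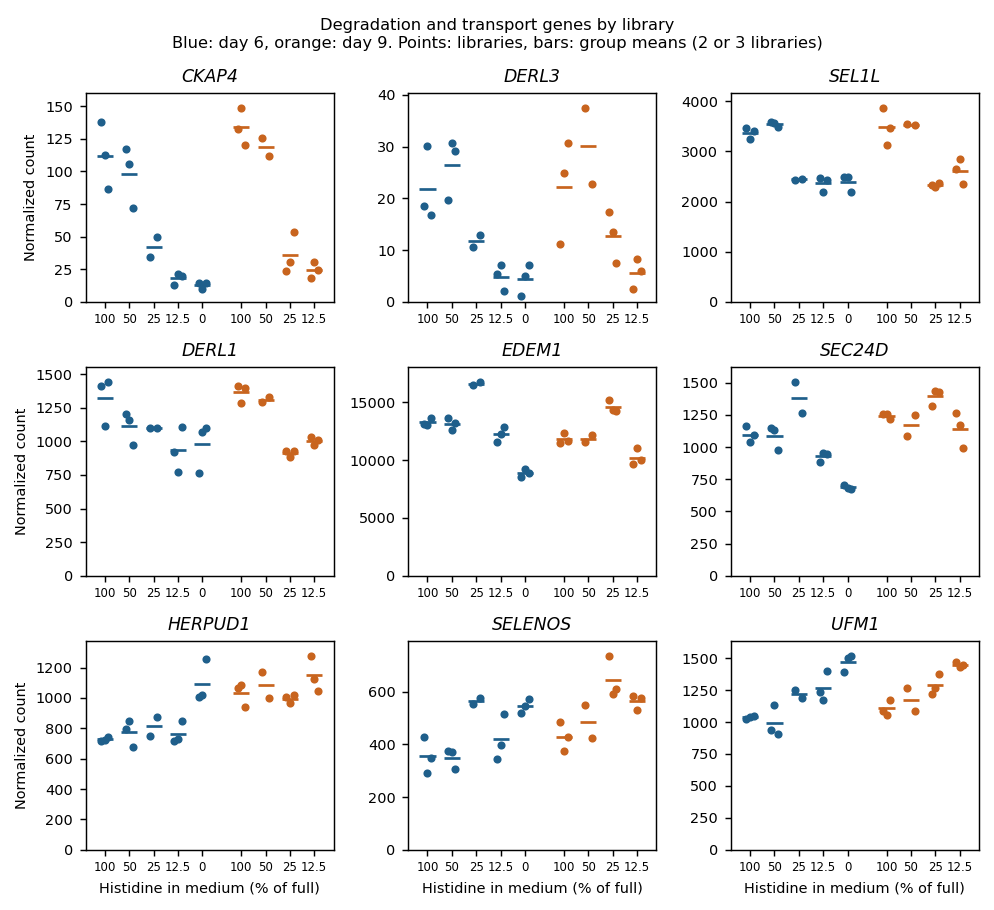
Normalized counts of 9 degradation, transport and structure genes in each library (points) with group means (bars), by histidine in the medium as percent of the full amount, day 6 in blue and day 9 in orange, each panel starting at 0. CKAP4 and SEL1L are low at 25% and below on both days, EDEM1 is highest at 25% on both days, and HERPUD1 is highest without histidine on day 6.

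None of the 3 sensor genes was called in a comparison with full medium, though each passed under 1 or more alternatives. ATF6 stood at 699, 664 and 762 normalized counts in full medium on day 6, at 759, 752 and 656 at 50%, at 727 and 636 at 25%, at 552, 651 and 614 at 12.5% and at 581, 519 and 578 without histidine, where the difference was -0.34 (95% interval -0.65 to -0.03, adjusted p = 0.0964). ATF6 passed there in a fit of the compared groups only (adjusted p 0.0316) and without day 9 replicate 3 at 25% (0.0320). On day 9 ATF6 stood at 522, 590 and 579 in full medium, at 543 and 670 at 50%, at 467, 459 and 756 at 25% and at 646, 553 and 784 at 12.5%. Every restricted group of day 9 overlapped with full medium, and the 12.5% difference there was 0.22 (adjusted p = 0.352).

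ERN1 (IRE1) stood at 1200, 1132 and 1036 normalized counts in full medium on day 6, at 1086, 1038 and 1293 at 50%, at 1342 and 925 at 25%, at 1168, 949 and 941 at 12.5% and at 1166, 1380 and 1165 without histidine. On day 9 ERN1 stood at 1286, 771 and 1025 in full medium, at 904 and 1161 at 50%, at 1284, 1391 and 1158 at 25% and at 1204, 1282 and 1289 at 12.5%. Every restricted group overlapped with full medium, and the largest difference, 0.34 at 25% on day 9, had an adjusted p of 0.142. Without day 9 replicate 1 in full medium ERN1 passed at 25% and at 12.5% (0.52 and 0.50, adjusted p = 0.0261 and 0.0279). EIF2AK3 (PERK) stood at 505, 417 and 425 in full medium on day 6, at 400, 471 and 447 at 50%, at 608 and 518 at 25%, at 421, 433 and 436 at 12.5% and at 425, 377 and 374 without histidine. On day 9 EIF2AK3 stood at 638, 686 and 599 in full medium, at 626 and 653 at 50%, at 642, 726 and 722 at 25% and at 591, 604 and 505 at 12.5%. Its largest difference from full medium was 0.33 at 25% on day 6 (95% interval 0.09 to 0.57, adjusted p = 0.0647), which passed with the filter at 50 (adjusted p 0.0416) and without day 6 replicate 1 in full medium (0.0315).

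XBP1 (chr22:28794555-28800597), the factor whose messenger IRE1 splices, fell at 12.5% on day 6. Gene-level values do not separate its spliced form. It stood at 11261, 10409 and 11341 normalized counts in full medium on day 6, at 10674, 12486 and 8794 at 50%, at 13019 and 12622 at 25%, at 7316, 8204 and 9862 at 12.5% and at 9604, 12853 and 12612 without histidine. The fall at 12.5% (-0.39, SE 0.12, adjusted p = 0.0223) was lost without replicate 1 or 3 in full medium or replicate 1 or 2 at 12.5% (adjusted p between 0.00564 and 0.138 over all alternatives). It rose by 0.46 from 12.5% to no histidine (adjusted p = 0.0123), with 1 library overlapping and the call lost without replicate 1 at 12.5% or replicate 2 or 3 without histidine (adjusted p up to 0.121). On day 9 XBP1 stood at 9256, 10217 and 9038 in full medium, at 11137 and 9348 at 50%, at 11712, 11480 and 12733 at 25% and at 10122, 8788 and 9232 at 12.5%, and no difference passed. All 25% libraries of day 9 lay above those in full medium, with a difference of 0.33 (adjusted p = 0.0659). It passed after upper-quartile rescaling (0.38, adjusted p = 0.0187), after quantile normalization (0.29, adjusted p = 0.0123) and in a fit of the compared groups only (0.0149). It also passed without day 6 replicate 2 or 3 at 50%, replicate 3 at 12.5% or replicate 1 without histidine (adjusted p between 0.0395 and 0.0477).

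Of the 5 genes of entry, exit and ER structure 2 fell and 1 rose at 12.5% on day 6 (15.3% and 11.7% of all genes), and 2 fell and 2 rose without histidine (16.5% and 13.3%). SEC61B, the small beta subunit of the channel, stood at 895, 816 and 833 normalized counts in full medium on day 6, at 725, 830 and 607 at 50%, at 709 and 676 at 25%, at 327, 442 and 517 at 12.5% and at 578, 773 and 903 without histidine. The 12.5% libraries were the lowest of the day. SEC61B fell there (-1.01, SE 0.16, adjusted p = 6.21e-05) and rose by 0.81 from there to no histidine (adjusted p = 0.00113, up to 0.0731 in a fit of those groups alone, from 0.000184). On day 9 SEC61B stood at 867, 879 and 836 in full medium, at 1082 and 794 at 50%, at 782, 699 and 628 at 25% and at 756, 623 and 683 at 12.5%, where the difference of -0.33 did not pass (adjusted p = 0.16) other than in a fit of the compared groups only (0.0425). SEC61A1, the pore itself, was 3848 ± 48.8 in full medium on day 6, 3260 ± 342 at 12.5% and 4992 ± 356 without histidine (n = 3 each). It rose by 0.62 between the last pair (SE 0.10, adjusted p = 0.000189), and by 0.37 against full medium (adjusted p = 0.00762, up to 0.0911 without the keratin-high libraries, from 6.88e-05).

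SEC24D, a cargo-binding subunit of COPII, stood at 1161, 1036 and 1095 normalized counts in full medium on day 6, at 1146, 1134 and 981 at 50%, at 1504 and 1266 at 25%, at 888, 955 and 948 at 12.5% and at 702, 684 and 674 without histidine. It fell by 0.67 without histidine (SE 0.09, adjusted p = 5.44e-06), where its libraries lay below all others. It rose by 0.33 at 25% (adjusted p = 0.0354), lost without replicate 2 or 3 in full medium or replicate 2 at 25% (adjusted p between 0.0223 and 0.41 over all alternatives). On day 9 SEC24D stood at 1260, 1260 and 1217 in full medium, at 1090 and 1247 at 50%, at 1319, 1440 and 1431 at 25% and at 1265, 1170 and 993 at 12.5%, with no call. SEC31A, of the outer COPII cage, rose by 0.26 at 12.5% and by 0.28 without histidine on day 6 (adjusted p = 0.0411 and 0.0263). Leaving out any full-medium library or any 12.5% library ended its first call, and any full-medium library or replicate 1 or 2 without histidine its second (adjusted p up to 0.207 and 0.162 over all alternatives).

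CKAP4 (chr12:106237877-106304279), which shapes ER sheets and also sits at the cell surface, fell more than any other of the 40 genes at 25%, 12.5% and no histidine on day 6 and at 25% and 12.5% on day 9. It stood at 138, 112 and 86.2 normalized counts in full medium on day 6, at 117, 105 and 71.9 at 50%, at 34.2 and 49.5 at 25%, at 13.2, 21.4 and 20.1 at 12.5% and at 14.8, 10.1 and 14.0 without histidine. The log2 differences were -1.40 at 25% (adjusted p = 0.00557), -2.56 at 12.5% (SE 0.30, adjusted p = 1.32e-06) and -3.01 without histidine (SE 0.30, adjusted p = 3.86e-08). The 25% call was lost without replicate 2 at 25% (adjusted p 0.111), as well as without the libraries high in keratin (0.187, from 0.00288 over all alternatives). On day 9 CKAP4 stood at 133, 149 and 121 in full medium, at 126 and 112 at 50%, at 23.2, 30.8 and 53.6 at 25% and at 17.9, 30.1 and 24.1 at 12.5%. It fell at 25% and at 12.5% (-1.95 and -2.45, adjusted p = 5e-05 and 2.78e-06), and on either day no library at 25% or below reached the range of 100% or 50%. In the day 9 full-medium libraries, where CKAP4 was between 121 and 149, the keratins KRT8, KRT18 and KRT19 added up to between 2.53 and 17.7 normalized counts.

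**Figure D5:**
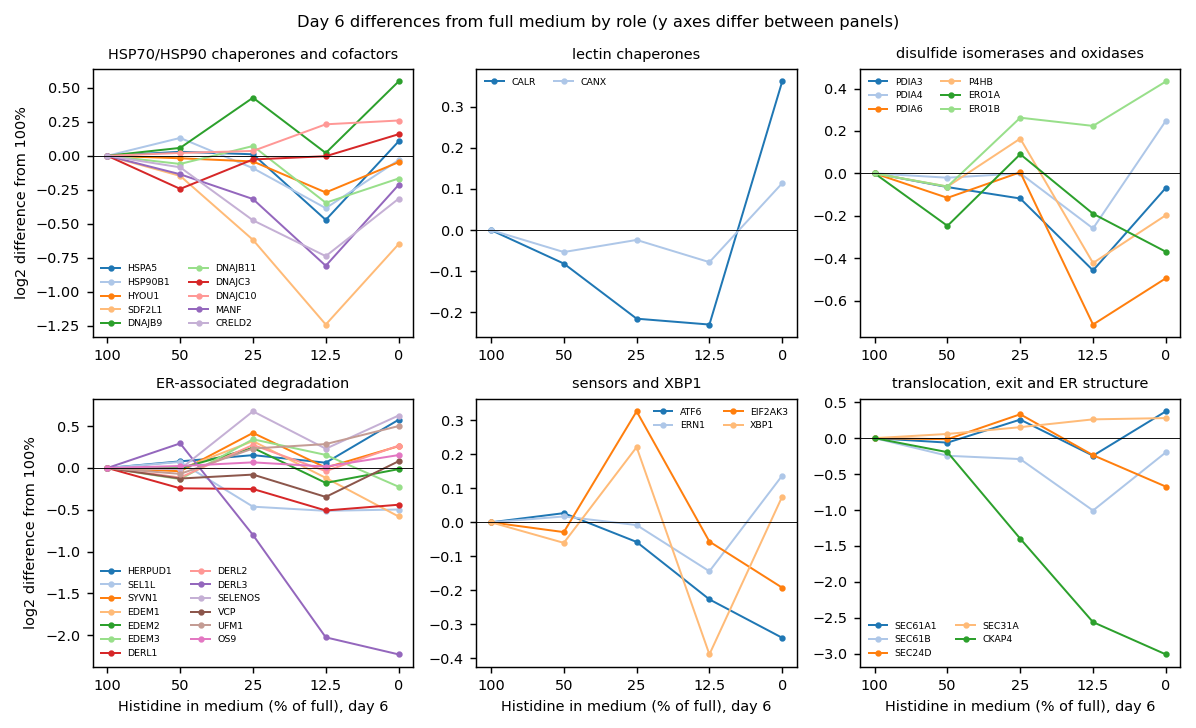
Difference of each gene's day 6 mean from 100% histidine, in log2(normalized count + 1), by histidine in the medium as percent of the full amount, in 6 panels by role with 1 line per gene (y axes differ between panels). Most lines of the HSP70 and HSP90 group dip at 12.5% and lie higher without histidine (HSPA5 -0.47 and 0.11, SDF2L1 -1.24 and -0.65), while CKAP4 and DERL3 are lowest without histidine.

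Read against the promoter elements, 7 of the 11 genes with ERSE or ERSE-II fell at 12.5% on day 6 (median -0.38). Of the 25 matched genes without either, 8 fell and 2 rose (median -0.14), where 15.3% of all genes fell and 11.7% rose. From 12.5% to no histidine 7 of the 11 rose (median 0.42), and 6 of the 25 rose and 2 fell (median 0.18). There 7% of all genes rose and 8.26% fell. Without histidine against full medium, 2 of the 11 rose and 2 fell, and 8 of the 25 rose and 4 fell (13.3% and 16.5% of all genes). On day 9, 5 of the 11 fell at 12.5% and 3 at 25%, as did 5 of the 25 at each level (11.5% and 8.76% of all genes). None of the 11 rose at either level, while 1 of the 25 rose at 12.5% and 3 at 25% (9.35% and 9.4% of all genes). At 25% on day 6, 2 of the 11 fell and none rose, and 2 of the 25 fell and 4 rose (6.92% and 6.79% of all genes). MANF, SEC61B and PDIA4, which fell at 12.5% and rose from there to no histidine, hold neither element in their windows, and CANX holds ERSE and had no call. The rise of MANF did not hold with each library left out in turn. Its nearest libraries stood at 879 (12.5%) and 890 (no histidine) normalized counts. The counts by element carry no test.

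Between days in full medium, HERPUD1 rose by 0.49 (adjusted p = 0.016) and EIF2AK3 by 0.52 (adjusted p = 0.00828) from day 6 to day 9, and no ER gene fell, where 1.1% of all genes rose and 1.07% fell. The HERPUD1 call was lost without replicate 1 or 2 of either day and the EIF2AK3 call without replicate 2 of either day (adjusted p up to 0.356 and 0.139 over all alternatives). The difference between days in the effect of 12.5% was tested directly. No ER gene passed, with 0.0426% of all genes higher and 0.0213% lower, while 4 ER genes and 1887 genes in all had an unadjusted p under 0.05. These were SEC61B (0.68), ERN1 (0.47), XBP1 (0.37) and SEC61A1 (0.34), with adjusted p between 0.302 and 0.486. Of the ATF4-arm genes listed next, TRIB3 (0.91, adjusted p = 0.0204) and CEBPB, a stress-induced factor of the C/EBP family (0.70, adjusted p = 0.025), were higher in this test. The TRIB3 result was lost under 9 of 35 alternatives, among them without replicate 1 or 3 in full medium of day 6, replicate 1 at 12.5% of day 6, replicate 2 in full medium of day 9 or replicate 1 or 3 at 12.5% of day 9 (adjusted p between 0.00327 and 0.256). The CEBPB result was lost under 13, including without any of the 6 full-medium libraries except day 9 replicate 1, replicate 1 at 12.5% of day 6 or any 12.5% library of day 9 (adjusted p between 0.00761 and 0.365). For HSPA5 the difference between days was 0.05 (95% interval -0.24 to 0.35).

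Other genes of the same pathway were counted in 6 lists. Of 19 genes of the PERK and ATF4 arm, 5 rose and 7 fell at 12.5% on day 6 (11.7% and 15.3% of all genes). In the same list 4 rose and 3 fell without histidine (13.3% and 16.5%), 5 rose and 3 fell at 12.5% on day 9 (9.35% and 11.5%), and 6 rose and 3 fell at 25% on day 9 (9.4% and 8.76%). SLC7A11, the cystine transporter, rose by 0.89 at 12.5% (adjusted p = 7.18e-06) and by 0.97 without histidine on day 6 (adjusted p = 8.9e-07), and by 0.56 at 12.5% on day 9 (adjusted p = 0.00131). SLC3A2, its heavy-chain partner, rose by 0.62, 0.88 and 0.76 in the same comparisons (adjusted p = 0.00438, 0.000112 and 0.000984), and none of these 6 calls was lost under an alternative. ATF3, a stress factor of the same arm, rose by 0.84 at 25% on day 9 (adjusted p = 0.0211), lost under 5 of 35 alternatives, among them without replicate 1 or 3 in full medium or replicate 2 at 25% (adjusted p between 0.00128 and 0.147). DDIT3 (CHOP), the stress factor at the end of the arm, fell at 12.5% on day 6 (-0.77, adjusted p = 2.33e-05). It went from 636.1 ± 34.2 to 373.1 ± 29.5 normalized counts (n = 3 each). On day 6 it also fell at 25% (-0.82, adjusted p = 9.61e-05) and stood at 660.0 ± 20.3 without histidine (n = 3). From 12.5% to that medium it rose by 0.82 (adjusted p = 1.61e-05). On day 9 DDIT3 fell at 12.5% and at 25% (-0.54 and -0.93, adjusted p = 0.00119 and 3.28e-06). ATF5, of the same list, fell at 12.5% on day 6 and day 9 (-0.95 and -0.84, adjusted p = 6.38e-09 and 3.33e-08), and no alternative ended either call. It also fell at 25% on day 6 and day 9 (-0.56 and -0.68, adjusted p = 6.74e-05 and 7.4e-07) and without histidine (-0.79, adjusted p = 1.63e-08). TRIB3, a target of that arm, fell at 12.5% and without histidine on day 6 (-1.25 and -0.70, adjusted p = 2.46e-08 and 2.22e-05). On day 9 TRIB3 fell by 0.33 at 12.5% (adjusted p = 0.031), lost under 8 of 35 alternatives, among them without replicate 1 or 3 in full medium or replicate 2 or 3 at 12.5% (adjusted p between 0.0164 and 0.158). ATF4 itself passed in no comparison with full medium (-0.22 at 12.5% on day 6, adjusted p = 0.0649), although leaving out replicate 3 at 12.5% or replicate 2 or 3 at 50% brought it past the threshold (adjusted p between 0.0256 and 0.855 over all alternatives). Without histidine ATF4 differed by 0.03 from full medium and passed only after quantile normalization (adjusted p = 0.0396). From 12.5% to no histidine it differed by 0.26 (adjusted p = 0.052), which passed under 8 of 35 alternatives. ASNS, a classic ATF4 target, stood on day 6 at 74.2, 24.7 and 93.4 normalized counts without histidine. The difference from full medium was 1.53 (adjusted p = 0.102). It passed without replicate 2 of either group, among others. At 12.5% ASNS stood at 71.1 ± 17.8, beside 23.2 ± 19.2 in full medium (n = 3 each), a difference of 1.84 that did not pass (adjusted p = 0.051). It did pass under 11 of 35 alternatives, among them without replicate 2 in full medium (adjusted p between 0.0181 and 0.218).

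Of 30 genes of the translocon, signal peptidase and N-glycosylation, 7 fell and 2 rose at 12.5% on day 6 (15.3% and 11.7% of all genes), and 2 fell and 8 rose at 25% on day 6 (6.92% and 6.79%). SPCS1, a signal peptidase subunit, fell at 12.5% on day 6 (-1.57), from 998.4 ± 74.9 to 336.5 ± 38.3 normalized counts (n = 3 each, adjusted p = 1.49e-08), and on day 9 (-1.38, adjusted p = 8.89e-08). It also fell at 25% on day 6 and day 9 (-1.08 and -1.39, adjusted p = 1.97e-05 and 8.24e-08). Without histidine it fell against full medium (-0.93, adjusted p = 5.63e-06), and from 12.5% to that medium it rose (0.64, adjusted p = 0.00146). STT3A, a catalytic subunit of the glycosylation enzyme in the same list, rose at 25% by 0.98 on day 6 (adjusted p = 2.58e-05) and at 12.5% by 0.70 on day 9 (adjusted p = 0.000188). RTCB, the ligase that joins the spliced XBP1 messenger, fell at 12.5% on day 6 and day 9 (-1.09 and -1.01, adjusted p = 2.9e-07 and 1.03e-06). It also fell at 25% on day 6 and day 9 (-0.95 and -1.01, adjusted p = 1.79e-05 and 1.15e-06) and without histidine (-0.76, adjusted p = 1.44e-05). Of the 15 tested genes in its list of other stress regulators and ER-phagy factors, 6 fell and 1 rose at 12.5% on day 6. Of 24 tested COPII and retrieval genes 5 fell and 3 rose there, and SEC23B, a COPII coat subunit, was among those that fell (-0.67, adjusted p = 1.02e-05). SEC23B also fell without histidine (-0.39, adjusted p = 0.00202), and its difference at 25% on day 6 did not pass (-0.18, adjusted p = 0.297). Of 27 other folding enzymes 9 fell and 1 rose at 12.5% on day 6, and of 25 other degradation and UFM1 genes 7 fell and 4 rose. At 12.5% on day 9, where 11.5% of all genes fell and 9.35% rose, 2 of the 30 translocon and glycosylation genes fell and 3 rose, and 3 of the 27 other folding enzymes fell and 3 rose. Of the other degradation and UFM1 genes 2 fell and 4 rose there, of the COPII and retrieval genes 4 fell and 3 rose, and of the other stress regulators 3 fell and 3 rose. The medians of the 6 lists at 12.5% on day 6 ran from -0.22 to -0.02, beside 0.04 over all genes.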

How the data were processed

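DND-41 libraries were made from total RNA with a strand-specific protocol, per the labels' protocols. The values deposited by the authors are a signal, the normalized count of each gene. Per the submitters' processing notes the tools were kallisto 0.50.1, DESeq2 1.44.0 and FastQC 0.11.9 and the build GRCh38. Which annotation release and strand setting were used is not given in the sources used here, so reads of overlapping genes and of near-identical copies (PDIA3P1, XBP1P1) may be shared with the genes named. Whole reads could not be recovered, since only 37.8% to 76.1% of the values under 20 in a library came within 0.05 of a whole multiple, so depth is known only as the normalized total and count tests were not run.

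Genes at 10 or more in at least 2 libraries were kept (18799 of 31919), moved to the log2 scale after adding a pseudocount of 1, and analysed by limma (3.58.1, under R 4.3.3) using its intensity trend, 1 mean for each of 9 groups, all 25 libraries and 16 residual degrees of freedom. All tests are two-sided, and each of the 10 comparisons had its own Benjamini-Hochberg adjustment and a threshold of 0.05. The log scale understates changes of low genes. Promoter windows came from RefSeq (GRCh38.p14) and gene positions, looked up by symbol, from GENCODE 29 on GRCh38. Plots used Python 3.11.15 and matplotlib 3.10.9. The procedure was tested on simulated data.

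The 40 genes, the lists and the tests were chosen with earlier results of these data known. Library values are given for 8 genes whatever their values (HSPA5, HSP90B1, HERPUD1, DNAJB9, XBP1, ATF6, ERN1, EIF2AK3) and for the 6 largest called changes, with a mean of at least 50, without histidine on day 6 and at 12.5% on each day. Library values of DERL3 and group values of other members were added after their values were seen. From each other list up to 2 called genes with the largest change in a comparison were named, plus DDIT3, ATF4 and ASNS. Groups follow the titles. Days are those of the samples, although the series' design text gives different ones.

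The alternatives were pseudocounts of 0.5 and 8, no filter, a filter at 50, no mean trend, quantile normalization, upper-quartile rescaling, the replicate number as block, a fit of only the groups being compared, a fit without the 6 libraries above 100 in KRT8, KRT18 and KRT19, and leaving out each library.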

Additional observations from a re-analysis of the deposited data

How the results depend on the processing

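No ER gene reversed direction while called under any alternative. The count of called genes stayed within 1.5 times its main value except as follows. Upper-quartile rescaling gave 7 at 12.5% on day 9 (2 rose, 5 fell) and 0 between days in full medium. It moved the median of all genes to 0.17 at 12.5% on day 6, to 0.14 at 12.5% on day 9 and to -0.15 between days, with the ER genes at -0.10, -0.05 and -0.03. Its splits were 2 up and 11 down at 12.5% on day 6 and 2 up and 4 down at 25% on day 6, and quantile normalization gave 14 up and 9 down without histidine. A fit of the compared groups only gave 7 for none against 12.5% and 1 between days. Without the keratin-high libraries the counts were 9 without histidine (3 rose, 6 fell), 9 at 12.5% on day 6 (0 rose, 9 fell), 0 at 25% on day 6, 3 at 25% on day 9 and 0 between days. Fewer libraries remain there, so the spread is estimated from fewer.

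Leaving out each library gave counts of 12 to 20 at 12.5% and 4 to 9 at 25% on day 6, 13 to 20 without histidine, 7 to 15 at 12.5% and 7 to 14 at 25% on day 9, 10 to 18 for none against 12.5%, 0 to 3 between days, and 0 to 0 at 50% on either day and for the difference between days. The count between days dropped to 0 without day 6 replicate 2 and to 1 without day 6 replicate 1 or day 9 replicate 1 or 2. With replicate 1 without histidine left out, the library whose labels disagree, 16 genes were called without histidine.

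With the replicate number as a block, 19 genes were called at 12.5% and 18 without histidine on day 6, 8 at 25% on day 6, 14 at 12.5% and 11 at 25% on day 9, 16 for none against 12.5%, 2 between days and 0 elsewhere. Same-numbered libraries of a day did not deviate together over all genes (median correlation 0.00684 over 41 pairs, between -0.128 and 0.0789). A weak pairing, or one limited to some genes, could give the same value, so whether the numbers pair samples stays unknown. Groups of 2 or 3 libraries and unknown read depth limit the precision of every value.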
